A study of Mus musculus with 6 samples.

Results

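Nmu, Rab3c, Gng3, Trpc7 and Entpd3 are genes of peptide signalling, vesicle release, receptor coupling, calcium entry and extracellular nucleotide breakdown that are best known from neurons and hormone-secreting cells. These 5 genes, of 18193 with a named probe set, were chosen because their values lay higher in lungs lacking epithelial Smad1 than in wild type lungs in all 3 pairs of mice. They are read by 9 probe sets of the 45037 measured, 5 of them for Rab3c and 1 for each of the other genes. Lungs of C57/BL6 mouse embryos were taken at E18.5, and the RNA of the left lobe of each was hybridised to an Affymetrix Mouse430_2 array. The groups were wild type (3 animals) and Smad1 CKO (3 animals), a conditional knockout of Smad1 in the lung epithelium. Smad1 carries signals of bone morphogenetic proteins into the nucleus, and the series was made to study how it and the Wnt inhibitor gene Wif1 act in lung development. The labels give neither the Cre driver, nor the deleted part of Smad1, nor whether the wild type animals carried a floxed allele. The lobe holds every cell type of the lung, including those in which Smad1 was not targeted.

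Neuromedin U, the product of Nmu, is a secreted peptide that acts through the receptors NMUR1 and NMUR2. These receptors couple to G proteins of the Gq class, which switch on phospholipase C. In the adult lung the peptide is known as a signal from nerves to type 2 innate lymphoid cells. RAB3C is a small GTPase on secretory and synaptic vesicles, GNG3 a gamma subunit of heterotrimeric G proteins that is abundant in brain, and TRPC7 a calcium-permeable channel opened by the diacylglycerol that phospholipase C makes. ENTPD3 is an enzyme of the cell surface that splits ATP and ADP outside the cell. In the lung, such genes are at home in pulmonary neuroendocrine cells, which are airway epithelial cells that release peptides and amines, and in the nerves of the airway.

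The stretches just upstream of the 3 genes with the highest mean differences are shown because these genes lay higher together and the study concerned a DNA-binding factor. They are the 250 bases before an annotated start in RefSeq (GRCm38.p6), 5′ to 3′ on the strand of the gene. Capitals mark matches, on either strand, to CAGAC (a SMAD binding element), GGCGCC (a GC-rich SMAD element) or TGACG (the core of the cyclic AMP response element).
Nmu, chr5:76363778-76364027, minus strand: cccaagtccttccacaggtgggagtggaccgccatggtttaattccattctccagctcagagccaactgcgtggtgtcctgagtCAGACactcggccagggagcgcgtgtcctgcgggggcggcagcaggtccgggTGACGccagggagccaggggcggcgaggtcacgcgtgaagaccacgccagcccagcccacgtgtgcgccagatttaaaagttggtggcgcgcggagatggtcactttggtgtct
Rab3c, chr13:110280207-110280456, minus strand: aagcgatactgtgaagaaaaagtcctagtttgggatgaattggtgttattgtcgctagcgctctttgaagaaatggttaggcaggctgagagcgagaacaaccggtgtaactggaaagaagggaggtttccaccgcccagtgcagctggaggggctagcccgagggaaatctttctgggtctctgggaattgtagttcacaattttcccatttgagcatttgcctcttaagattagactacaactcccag
Gng3, chr19:8839247-8839496, minus strand: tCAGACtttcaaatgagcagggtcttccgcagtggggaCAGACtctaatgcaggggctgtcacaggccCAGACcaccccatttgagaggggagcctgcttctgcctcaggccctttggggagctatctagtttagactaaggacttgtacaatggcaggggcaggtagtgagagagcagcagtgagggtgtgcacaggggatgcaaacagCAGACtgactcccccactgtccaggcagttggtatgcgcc
The Gng3 stretch held CAGAC 4 times, the Nmu stretch held it 1 time and the Rab3c stretch not at all. CAGAC was present in 42.2% of the 32851 promoter stretches of this length in the table, so a single match was common. How many of those stretches held it 4 times was not counted, so the number in Gng3 has no comparison. The Nmu stretch also held TGACG, as 17.8% of all stretches did, and the Rab3c stretch held none of the 3 motifs. The stretch of Trpc7 held CAGAC 1 time and that of Entpd3 held none of the motifs, and GGCGCC, found in 9.6% of all stretches, was in none of the 5. No motif was shared by all 5 genes. The Nmu stretch was rich in G and C (64.0%, against a median of 52.4% over all stretches), while those of Rab3c and Trpc7 were both at 47.6%. A match of letters is a description of the sequence and not a binding site.

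Some facts of the arrays bear on all values. Smad1 CKO 3 stood apart: its 18S ribosomal RNA control read 2887, against 242.5 to 297.2 on the others, and its beta-actin 3′ to 5′ ratio was 1.56, against 1.21 to 1.39. It correlated with the other arrays at a mean of 0.893, against 0.956 to 0.969 for the rest. Smad1 CKO 1 differed in sex-linked genes, with Xist at 10.95 (log2) against 6.07 to 7.70 and the Y-linked Eif2s3y at 3.78 against 7.06 to 9.04, so pair 1 holds a difference of that kind as well. Smad1 itself lay between 9.53 and 10.09 (log2) in wild type lungs and at 10.12, 10.62 and 9.05 in CKO lungs 1 to 3. Its difference was 0.06 ± 0.51 (SD, 3 pairs; limma, adjusted p = 0.904). A probe set outside the deleted part would not show the deletion, but whether this one lies outside it was not tested. All 16 measured lung identity markers lay above the array median on all 6 arrays, as the tissue label requires. Their summed intensity ran from 81410 to 96720 in wild type and was 75100, 78970 and 20580 in CKO lungs 1 to 3. Array medians ran from 69.96 to 77.8, but the values of Smad1 CKO 3 spanned a narrower range. Its upper quartile was 170.3, against 222.3 to 283.8 on the others, and its lower quartile 37.64, against 27.71 to 32.01. The beta-actin 3′ control read 5820 on that array, against 18450 to 20900. The number of arrays limits the precision.

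Differences below are log2(intensity + 1) in CKO minus wild type, given per pair and as the mean ± SD over 3 pairs. Because the genes were chosen by these differences, their values are a description and carry no test. Higher values in all 3 pairs were found for 7 of the 9 probe sets, against 22.7% of all probe sets and 21% of all genes. The lowest CKO value was above the highest wild type value for 6 of the 9 probe sets (4.7% of all) and for 4 of the 5 genes, all but Gng3 (4.25% of all). Nothing is read from these counts, since the choice of the genes made them likely. In limma with Benjamini-Hochberg adjustment, 0 of the 45037 probe sets (0%) were called higher at 0.05, so none of these genes was, and 1 (0.00222%) was called lower. At an unadjusted p under 0.05, 1931 probe sets were higher (4.29%) and 3781 lower (8.4%). In a whole lobe, more cells of a type and more RNA per cell cannot be told apart. The labels do not say whether animals came from separate litters, so the SDs and p-values measure only the spread between these samples.

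**Figure D1:**
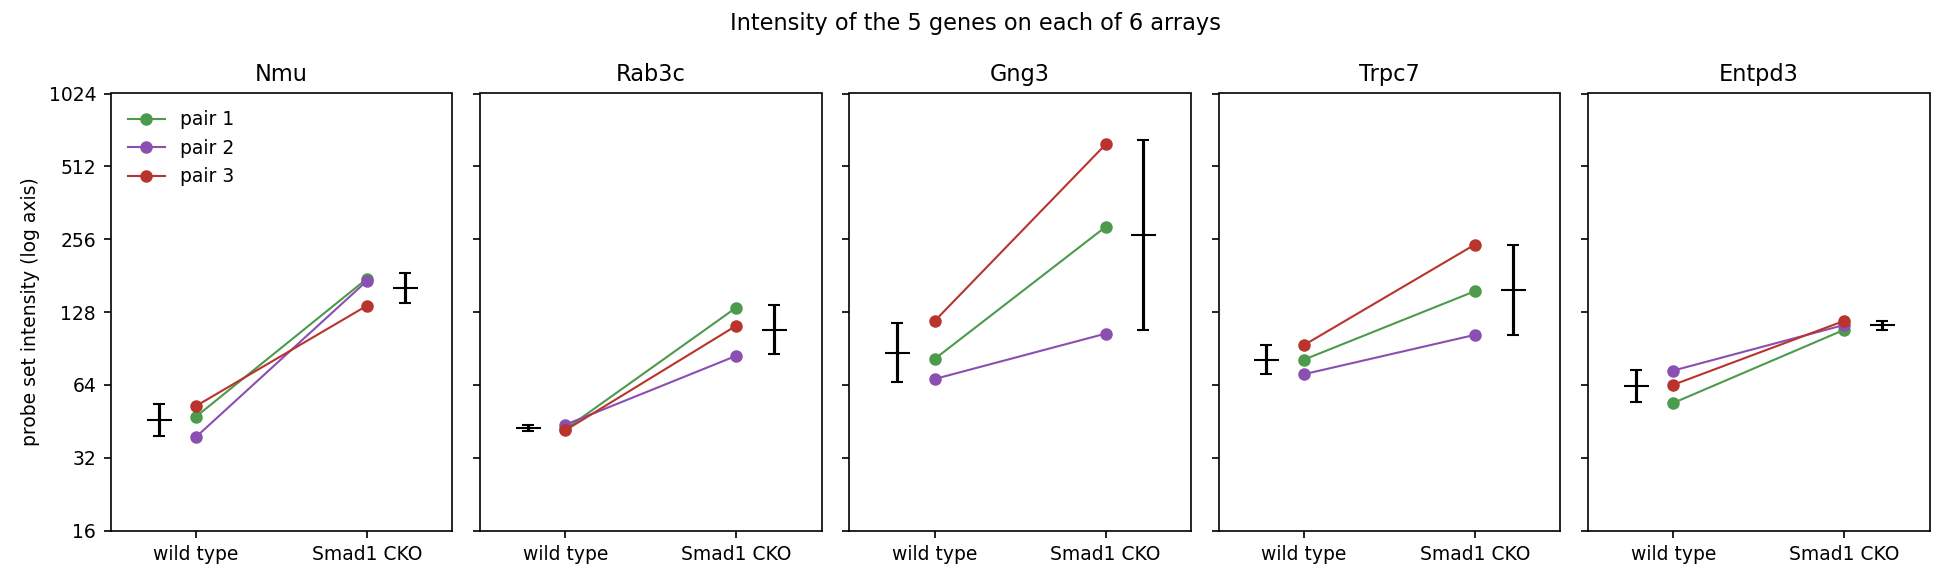
Intensity (log axis) of each of the 5 genes on the 6 arrays, with lines joining the animals of a pair and bars giving the group mean ± SD of the log2 values (n = 3). The CKO values of Nmu and Rab3c lie well clear of wild type, those of Entpd3 lie close together near 113.1, and those of Gng3 spread from 104.3 to 631.1.

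Nmu, the peptide precursor, had the largest mean difference of the 5. Its intensity was 47.38, 39.05 and 52.41 in wild type lungs 1 to 3 and 175.9, 172.3 and 136.1 in CKO lungs 1 to 3. The groups were far apart, with the lowest CKO value at 2.6 times the highest wild type value. The pair differences were 1.87, 2.11 and 1.36, with a mean of 1.78 ± 0.38, a 3.44-fold higher intensity (95% interval of the log2 difference 1.23 to 2.33). Nmu alone of the 5 had its largest difference in pair 2 and its smallest in pair 3, the pair of the outlying array. The place of pair 2 depended on scaling, since quantile normalization gave 1.88, 1.86 and 1.68 for Nmu in pairs 1 to 3. Cyclic loess normalization gave 1.91, 2.12 and 1.30. In wild type lungs the probe set was dim, brighter than 35.5% to 41.6% of probe sets on its array, and in CKO lungs it was brighter than 67.0% to 70.5%. Without a measure of background, this fold, like those below, is one of intensity and may understate that of the RNA. Among all genes 6 had a larger mean difference, and none had a larger smallest pair difference.

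Rab3c, the vesicle GTPase, came next in how clearly the groups stood apart. By its brightest probe set (1449494_at) its intensity was 42.01, 43.85 and 41.59 in wild type and 133.7, 84.47 and 112.5 in CKO lungs. The wild type lungs were nearly alike (SD 0.040 on the log2 scale) and the CKO lungs spread more widely (SD 0.33). The pair differences were 1.65, 0.93 and 1.41, with a mean of 1.33 ± 0.37, a 2.52-fold higher intensity. The other 4 probe sets of Rab3c were dimmer. Probe set 1435047_at gave 30.94, 32.81 and 34.35 against 71.59, 62.03 and 49.61, a mean difference of 0.87 ± 0.33, again without overlap. Probe set 1432432_a_at gave 27.59, 34.17 and 25.73 against 39.17, 80.45 and 36.37, with its largest difference, 1.21, in pair 2. Its smallest difference was 0.48, in pair 3, and its lowest CKO value was only 1.065 times the highest wild type value. Probe set 1432415_at was not higher in every pair, at 0.01, -0.18 and 0.33, and its groups overlapped. The last, 1449798_at, read 10.33 to 11.02 in wild type and 10.72 to 11.78 in CKO lungs, near the lowest intensity on each array (9.51 to 10.13). Thus 3 of 5 probe sets lay higher in all pairs, and the mean over all 5 was 0.61. Which transcripts each probe set reads was not analysed here.

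**Figure D2:**
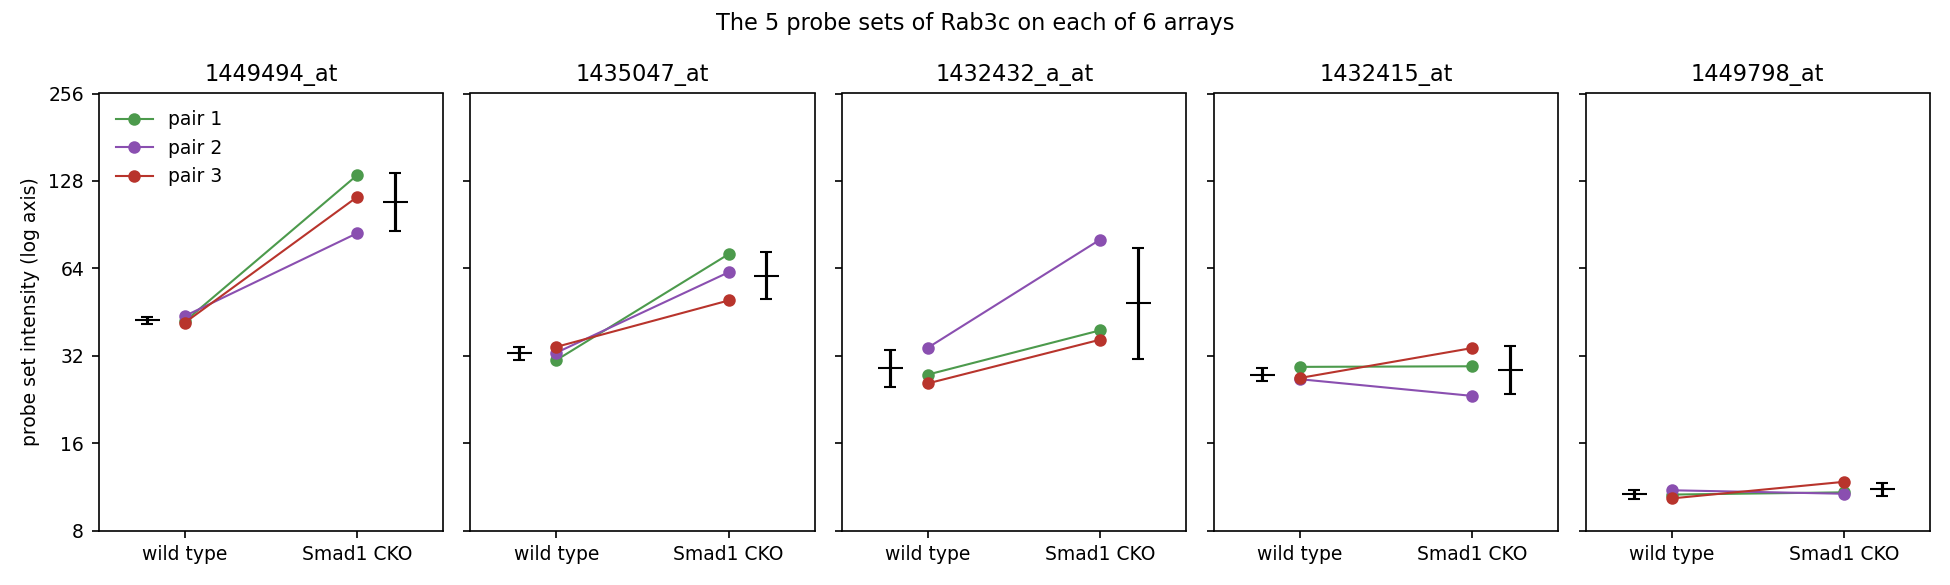
Intensity (log axis) of the 5 probe sets of Rab3c on the 6 arrays, drawn as for the 5 genes. From left to right the probe sets get dimmer and the difference shrinks, from a mean of 1.33 in the brightest to 0.05 in the dimmest, which stays near 11 on every array.

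Gng3, the G protein subunit, had the widest spread. Its intensity was 81.99, 67.74 and 117.7 in wild type and 288.0, 104.3 and 631.1 in CKO lungs. The groups overlapped, since CKO lung 2 lay below wild type lung 3, and CKO lung 3 lay far above all others. The pair differences were 1.80, 0.62 and 2.41, with a mean of 1.61 ± 0.91, a 3.05-fold higher intensity (95% interval 0.73 to 2.49). With 3 wild type against 2 CKO arrays, without Smad1 CKO 3, the difference was 0.99. The part of that array in the value of Gng3 was not tested beyond this.

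Trpc7, the channel, had the same order of animals within each genotype as Gng3, at a smaller size. Its intensity was 81.46, 70.89 and 93.57 in wild type and 156.2, 103.1 and 243.4 in CKO lungs. The groups did not overlap, but the lowest CKO value was only 1.1 times the highest wild type value. The pair differences were 0.93, 0.53 and 1.37, with a mean of 0.95 ± 0.42, a 1.92-fold higher intensity. In both genes, animal 3 was the highest and animal 2 the lowest within each genotype. Without Smad1 CKO 3 the difference of Trpc7 was 0.63.

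Entpd3, the ectonucleotidase, had the smallest mean difference and, in the values as deposited, the smallest spread over pairs. After quantile normalization Nmu had the smallest SD over pairs (0.11, against 0.28 for Entpd3). The intensity of Entpd3 was 53.95, 73.40 and 64.12 in wild type and 108.2, 113.3 and 117.8 in CKO lungs. The CKO lungs were nearly alike (SD 0.061 on the log2 scale) and all above the wild type lungs. The pair differences were 0.99, 0.62 and 0.87, with a mean of 0.83 ± 0.19, a 1.77-fold higher intensity. Leaving out Smad1 CKO 3 gave 0.80.

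Pair 2, whose arrays were closest over all probe sets (root mean square distance 0.242, log2, against 0.553 in pair 1 and 0.884 in pair 3), gave the smallest difference for 4 of the 5 genes, all but Nmu. Since dim and bright probe sets shifted differently on Smad1 CKO 3, each gene was set beside the 500 probe sets closest to it in mean log2 level. The medians of these ran from -0.23 to 0.09 in pair 1, from -0.02 to 0.03 in pair 2 and from -0.28 to 0.25 in pair 3. Subtracting them pair by pair left mean differences of 1.77 ± 0.45 for Nmu, 1.21 ± 0.33 for Rab3c, 1.79 ± 1.05 for Gng3, 1.03 ± 0.45 for Trpc7 and 0.80 ± 0.26 for Entpd3. In pair 2, 0% of these probe sets had a larger difference than Nmu, 0.2% than Rab3c, 1.4% than Gng3, 1.6% than Trpc7 and 1.2% than Entpd3. In pair 3 the shares were 5.4% for Nmu, 3% for Rab3c, 0.6% for Gng3, 3.6% for Trpc7 and 16.8% for Entpd3. These shares describe where genes chosen for being high lie, and are no test. Of the 500 probe sets, 14.8% (around Gng3) to 31.4% (around Rab3c) were themselves higher in all 3 pairs.

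**Figure D3:**
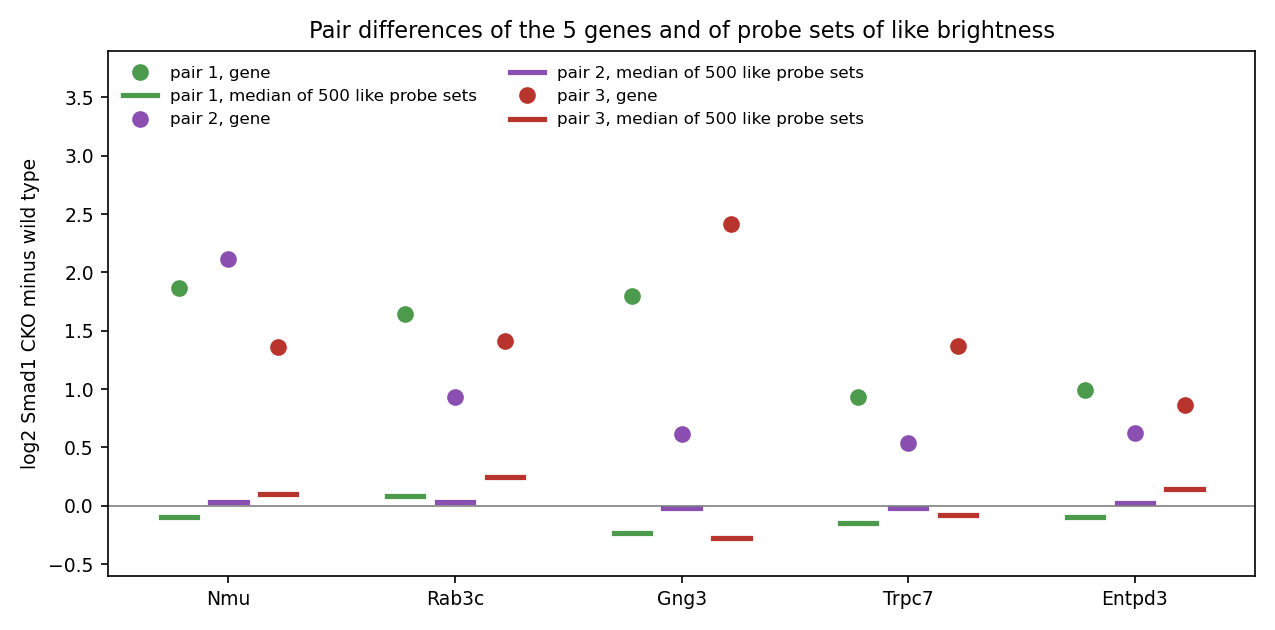
Difference in log2 level, CKO minus wild type, of each gene in each pair (points) and the median of the 500 probe sets of like brightness in that pair (short lines). All 15 points lie above their lines, from 0.53 for Trpc7 in pair 2 to 2.41 for Gng3 in pair 3.

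The 5 genes did not share 1 profile over the arrays. Profiles were compared by the root mean square distance between log2 levels over the 6 arrays, each centred on its gene's mean. Among the 10 pairings of these genes, Rab3c and Entpd3 were closest (0.346), followed by Nmu and Rab3c (0.354), and Gng3 and Entpd3 were farthest apart (0.883). Of 16313 genes compared, those closest to Nmu were Rab3c, the nuclease gene Dnase1l2 (0.42) and the mast cell chymase gene Cma1 (0.50). Dnase1l2 was also closest to Rab3c (0.268), ahead of the serpin gene Serpina3n (0.273) and Klhl40 (0.30). For Entpd3 the closest were Spout1 (0.15), Dnase1l2 (0.16) and Cbx7 (0.17). The profile of Gng3 was closest to those of the transporter gene Slc12a8 (0.18), the DNA replication nuclease gene Fen1 (0.21) and the transporter gene Slc5a9 (0.22). Fen1 read 826.0, 890.4 and 1477 in wild type and 2594, 930.7 and 6830 in CKO lungs. It thus had the same peak in CKO lung 3 and no difference in pair 2 beyond 0.06. Trpc7 was closest to Kdf1 (0.08), the peptidylarginine deiminase gene Padi2 (0.11) and Spem1 (0.11), all of them with their smallest difference in pair 2. The distances include the difference between the genotypes itself and rest on the same 6 arrays.

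**Figure D4:**
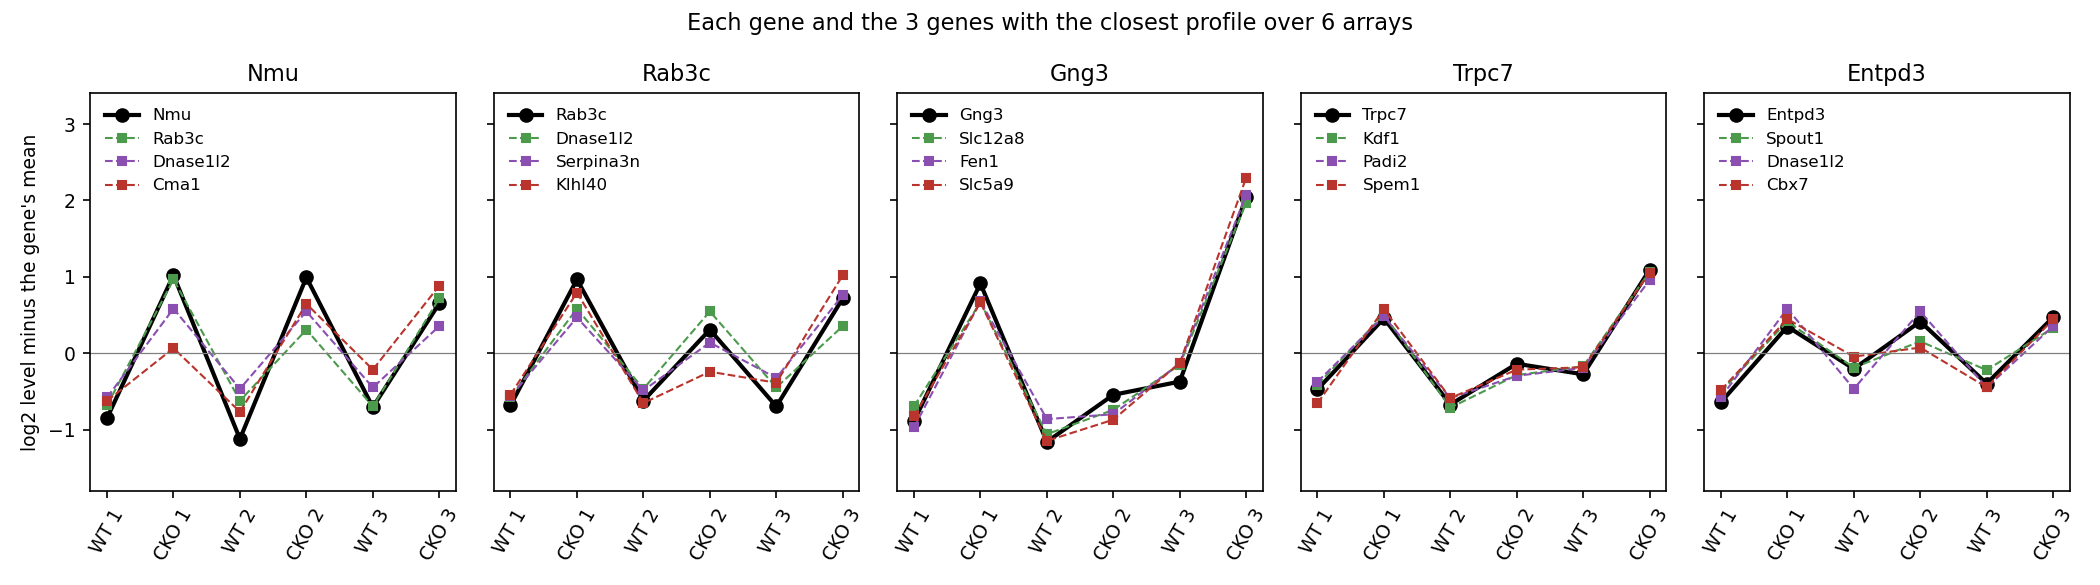
Log2 level on each array, centred on the gene's mean over the 6 arrays, of each gene (black) and the 3 genes closest to it (dashed). Gng3 and Trpc7 and their closest genes peak in CKO 3, whereas Nmu is about equally high in CKO 1 and CKO 2.

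The genes next to these on the chromosome were looked at as well. Of the 10 nearest protein-coding neighbours, 1 on each side, 8 were on the array, a comparison added after the data were seen. Of these, 1 was higher in all 3 pairs, Spock1 beside Trpc7 at 0.37 ± 0.38, and 4 were lower, which were Pde4d, Hnrnpul2, Eif1b and Rpl14, counts too small to set against the 21% and 29.3% of all genes. None passed in limma across all probe sets, and 1 had an unadjusted p under 0.05 (Pde4d beside Rab3c, -0.69 ± 0.24, adjusted p = 0.367). Bscl2, the seipin gene that overlaps Gng3, was at -0.69 ± 0.99, with -0.41, 0.13 and -1.79 in the 3 pairs. Its pair 3 value was the largest in size, as for Gng3, with the opposite sign. Nmu's neighbours Pdcl2 and Exoc1 were at 0.08 ± 0.20 and -0.27 ± 0.49.

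Other genes of the same pathways were taken from 17 lists, 217 measured genes of 238 listed. In limma across all probe sets 0 of the 217 passed in either direction, as did 0 of 18193 genes by their brightest probe set (0%). At an unadjusted p under 0.05, 13 were higher and 26 lower, against 4.96% and 9.96% of all genes. Of the 217, 28.6% lay higher in all 3 pairs and 24.9% lower, against 21% and 29.3% of all genes. The lowest adjusted p in any list was 0.367, so the values that follow are those of genes that did not pass. Some genes are in more than 1 list.

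The receptors of neuromedin U were not shifted evenly. Nmur1 read 108.9, 107.8 and 115.0 in wild type and 260.9, 89.02 and 165.3 in CKO lungs. Nmur2 read 51.62, 55.40 and 57.64 against 76.03, 55.39 and 114.0. Both were higher in pairs 1 and 3 and not in pair 2, where Nmu itself differed most in the values as deposited, though not after quantile normalization. The related peptide gene Nmb was at 0.36 ± 0.42, and the list of 4 had a median of 0.43. Among 17 other neuropeptide precursors the median was 0.27, and 7 were higher and 2 lower in all 3 pairs. Trh, the precursor of thyrotropin-releasing hormone, was at 0.54 ± 0.25. Grp, the gastrin-releasing peptide gene of neuroendocrine cells, was lower without overlap, at 234.3, 255.7 and 216.0 against 135.6, 214.4 and 152.3 (-0.51 ± 0.27). Penk, the enkephalin precursor, was at -0.56 ± 0.50.

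Genes downstream of the receptors had medians that depended on the scaling and on Smad1 CKO 3. The 15 genes of Gq and phospholipase C signalling had a median of -0.27, with 1 higher and 8 lower in all pairs, against a median of -0.09 over all genes. This median was 0.09 after quantile normalization, 0.08 after cyclic loess normalization and 0.006 without Smad1 CKO 3, so it had no settled direction. Gna14, a Gq-class alpha subunit, was at -0.64 ± 0.19 and Plcb4 at -0.60 ± 0.55, with 1 of the 5 probe sets of Plcb4 opposite in sign. The 10 genes of TRPC channels and store-operated calcium entry had a median of -0.32, and 0 were higher and 5 lower in all pairs. It was -0.11 after quantile normalization, -0.045 after cyclic loess normalization and -0.10 without Smad1 CKO 3. Trpc6, a channel of the same diacylglycerol-sensitive subfamily as Trpc7, read 79.19, 111.1 and 59.53 in wild type and 45.45, 68.22 and 34.62 in CKO lungs. Its difference was -0.75 ± 0.05, almost the same in each pair and of opposite sign to that of Trpc7, although the groups overlapped, with CKO lung 2 above wild type lung 3. Trpc1 was at -0.98 ± 0.66 and the calcium sensor gene Stim2 at -0.74 ± 0.51.

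Among 15 other G protein beta and gamma subunits the median was -0.37, with 4 higher and 6 lower in all pairs. It was 0.0041 after quantile normalization, 0.06 after cyclic loess normalization and -0.06 without Smad1 CKO 3, so the lower median was not kept. Gng2 was at -0.74 ± 0.26 by its brightest probe set, with 1 of its 4 probe sets opposite in sign, Gngt2 at -0.61 ± 0.38 and Gng11 at -0.72 ± 0.58. No subunit in the list had a difference above 0.53, against 1.61 for Gng3. The summed intensity of the list was 11850 to 15590 in wild type and 12810, 13850 and 5367 in CKO lungs 1 to 3, so much of its lower level lay in CKO lung 3.

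The remaining members of the Rab3 family, named here for their kinship and not by their p, were uneven. Rab3a, the main form in synapses, was higher in all 3 pairs, as Rab3c was, and read 514.8, 446.3 and 776.8 in wild type and 685.7, 547.0 and 2384 in CKO lungs, a difference of 0.77 ± 0.73 that came mostly from pair 3. Rab3b was at 0.03 ± 0.10 and Rab3d at -0.22 ± 0.56, with 2 of the 4 probe sets of Rab3d opposite in sign. The 28 genes of the Rab3 family and regulated exocytosis had a median of 0.05, with 11 higher and 8 lower in all pairs, and of -0.20 among the 20 brighter than the array median. Rab27a, another GTPase of secretory granules, was at 685.7, 642.8 and 474.5 against 193.9, 273.6 and 108.2, a difference of -1.72 ± 0.45 without overlap, with 1 of its 4 probe sets opposite in sign. The syntaxin gene Stx1a was at 0.56 ± 0.29 and Cadps2, a factor for priming dense-core vesicles, at -0.79 ± 0.51. Snap25, a core part of the neuronal release machinery, lay below the lower quartile of intensity on all 6 arrays.

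Of 10 ectonucleotidases other than Entpd3, 2 were higher and 1 lower in all pairs, with a median of 0.31 that came mostly from pair 3 (0.94, against 0.22 and -0.07) and was -0.06 without Smad1 CKO 3. Entpd6 read 207.7, 234.4 and 268.9 against 375.0, 272.9 and 524.3 (0.68 ± 0.40, no overlap). Enpp3 was at 0.72 ± 0.81 and Entpd5 at -0.72 ± 0.83, with 2 of 5 and 3 of 6 probe sets opposite in sign. The 15 purine receptors, which sense the nucleotides that ENTPD3 removes, had a median of 0.08, with P2ry6 at -0.51 ± 0.52 and P2ry14 at -0.41 ± 0.36.

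Markers of the cells that could carry these genes were read on the same arrays. The 16 measured markers of pulmonary neuroendocrine cells had a median of 0.29, with pair medians of 0.41, -0.01 and 0.33. Those higher in all pairs were 5, the granule protein genes Chga and Chgb, Resp18, prohormone convertase gene Pcsk1 and Dll3, at 0.20 to 0.42. The 3 lower in all pairs were Ddc (-2.13), Grp (-0.51) and Uchl1 (-0.08). Most of the list was dim, and the 4 markers brighter than the median over all probe sets had a median of -0.22. The summed intensity of the list was 1503 to 1649 in wild type and 1175, 1104 and 1853 in CKO lungs 1 to 3. Without Ddc it was 1014 to 1130 against 1103, 980.8 and 1678, so CKO lung 1 lay within the wild type range and CKO lung 2 still below it. Ddc, which encodes the enzyme that makes their amines, read 463.4, 542.6 and 519.0 in wild type and 71.38, 122.8 and 175.0 in CKO lungs (-2.13 ± 0.56), while its other probe set had the opposite sign. Without pair 3 the brighter one was called lower (-2.41, limma, adjusted p = 0.00906). Syp, synaptophysin, was at 0.98 ± 1.11, with 440.6 in CKO lung 3 against 24.6 to 97.26 elsewhere. Scg5 and Neurod1 lay below the lower quartile on all 6 arrays, and the peptide gene Calca was not analysed here. The list thus held both higher and lower markers beside the higher values of Nmu.

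The 20 markers of peripheral neurons had a median of 0.32, with pair medians of 0.28, 0.02 and 0.34. It was 0.08 without Smad1 CKO 3, 0.13 without pair 3 and -0.70 over the 3 markers brighter than the median, so it had no settled direction. Of the 20 markers 7 were higher and 3 lower in all pairs, and their summed intensity was 1105 to 1134 in wild type and 1201, 993.1 and 1641 in CKO lungs. Gap43, a protein of growing axons, was at -0.75 ± 0.44, Stmn2, of growing nerve endings, at -0.70 ± 0.39, and Hand2, a factor of sympathetic neurons, at 0.71 ± 0.52. The neurofilament genes Nefl and Nefm lay below the lower quartile on all 6 arrays. The 7 Schwann and glial markers had a median of 0.29, with S100b at 0.80 ± 0.62, and summed to 1524 to 1973 in wild type and to 1780, 2124 and 1244 in CKO lungs. Erbb3 made up most of the wild type sum, at 1394, 1408 and 986.5. It read 1162, 1544 and 387.5 in CKO lungs, which carried the low sum of CKO lung 3. The part of neurons and glial cells in the higher values of the 5 genes was not tested.

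Among 9 markers of type 2 innate lymphoid cells, which carry NMUR1, the median was 0.15, or -0.017 after cyclic loess normalization, with 4 higher (Gata3, Il13, Klrg1 and Icos) and 2 lower (Rora and Arg1) in all pairs. Their summed intensity was 527.3 to 559.4 in wild type and 466.4, 463.3 and 582.7 in CKO lungs. The lower sums of CKO lungs 1 and 2 came from Arg1 and Rora. Rora read 202.8, 226.2 and 137.1 in wild type and 119.4, 179.0 and 115.9 in CKO lungs. Of its 9 probe sets, 4 were opposite in sign to this one. Arg1, arginase 1, read 110.8, 71.46 and 117.7 in wild type and 34.18, 24.36 and 23.92 in CKO lungs (-1.81 ± 0.39). Il13, interleukin 13, was at 0.42 ± 0.11 and Klrg1 at 0.55 ± 0.48, and the receptor chain genes Il7r and Il2ra lay below the lower quartile on all 6 arrays. The 9 mast cell markers had a median of 0.48 (-0.05 over the 4 brighter than the median) and were uneven, with Kit at -1.39 ± 0.31, Cma1 at 1.07 ± 0.36 and Hdc at -0.81 ± 0.46, and summed to 1879 to 2731 in wild type and to 1320 to 1607 in CKO lungs. Kit and Hdc made up most of that sum, and the other 7 summed to 243.3 to 301.8 in wild type and to 375.8, 546.8 and 505.5 in CKO lungs 1 to 3. Markers of tissues next to the lung were read as a check on dissection. Heart and skeletal muscle markers (12) had a median of 0.01 and summed to 4965 to 7871 in wild type and 2712 to 6910 in CKO lungs. Thymus and T cell markers (8) had a median of 0.50, with 0.59, 0.04 and 0.67 in the pairs, and summed to 310.3 to 451.9 in wild type and 323.2 to 909.1 in CKO lungs. Oesophagus and basal epithelium markers (8) had a median of 0.29 (-0.13 over the 4 brighter ones), with 2 higher and 1 lower in all pairs, and summed to 739.3 to 871.9 in wild type and 616.8 to 762.0 in CKO lungs. Ptcra, of immature T cells, was at 0.57 ± 0.25. From the oesophagus list Pax9 was at 0.69 ± 0.21 and the keratin gene Krt13 at 0.54 ± 0.43, with 1 of the 3 probe sets of Krt13 opposite in sign. Krt15, a keratin of basal cells, was at -1.27 ± 0.80. It read 280.3, 285.6 and 349.6 in wild type and 187.4, 132.7 and 78.19 in CKO lungs. Krt15 thus carried the lower sums of this list in CKO lungs 2 and 3. The part of such tissue in the values of the 5 genes was not tested.

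**Figure D5:**
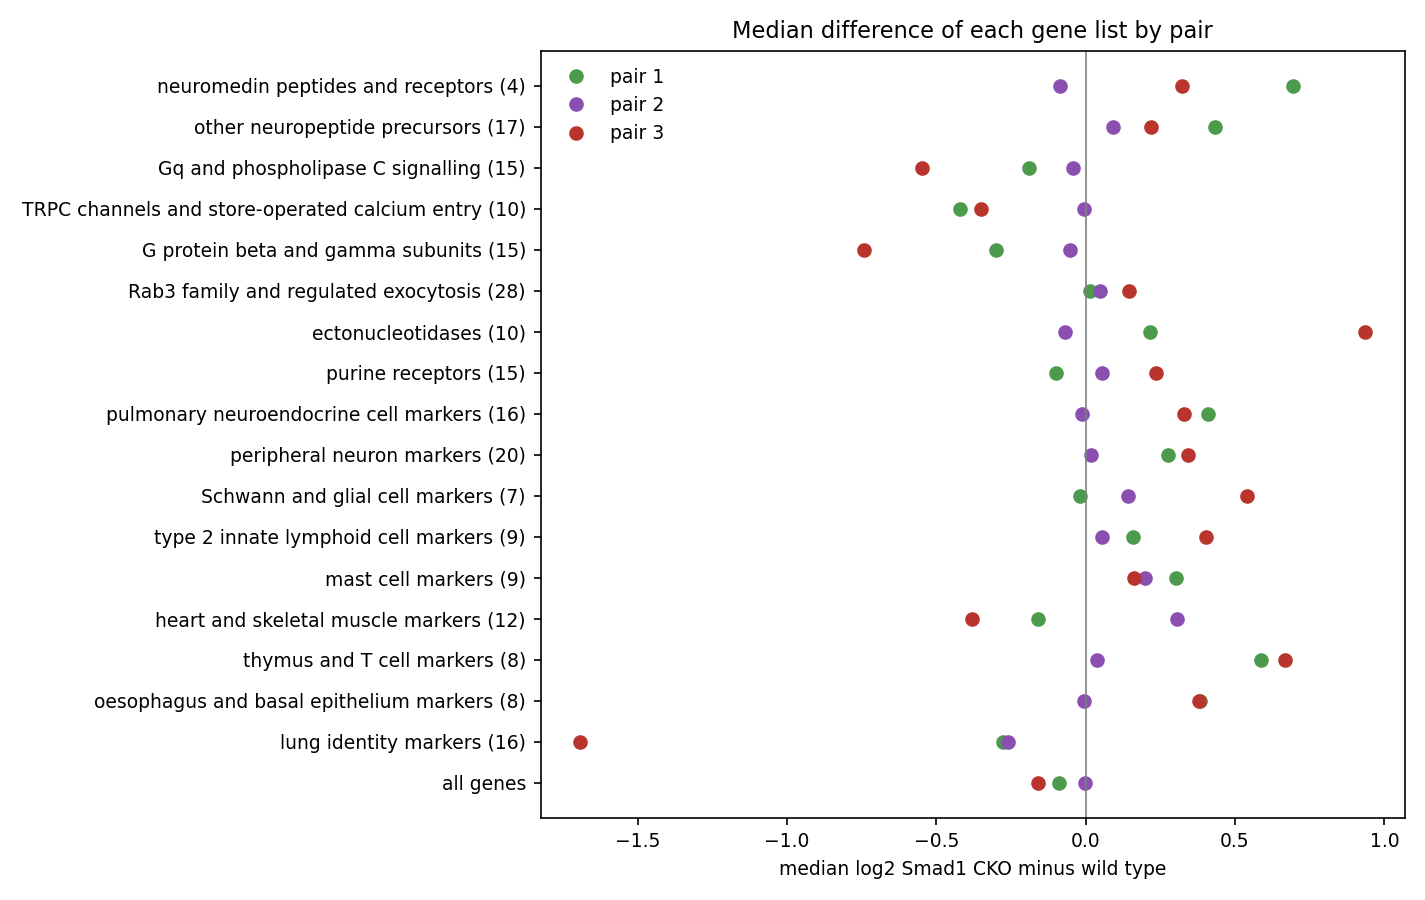
Median log2 difference, CKO minus wild type, of each gene list in each pair, with the number of genes measured in parentheses and all 18193 genes at the bottom. In 13 of the 17 lists the median of pair 2 is the closest to 0 of the 3 pairs, and the lung identity markers of pair 3 lie lowest at -1.69.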

How the data were processed

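RNA of 6 left lung lobes, 3 wild type and 3 Smad1 CKO, was purified with a Qiagen kit and hybridised as biotin-labelled cRNA, per the labels' protocols. The authors deposited 1 table of intensity per probe set, whose range shows a linear scale. The submitters' processing notes name RMA, and its software and settings are not stated there. Upper quartiles of the deposited values ran from 170.3 to 283.8, so the arrays had not been brought to 1 distribution by quantile normalization. Of 45101 rows less 64 controls, 45037 probe sets were tested: 34945 had 1 gene symbol in the platform annotation, 932 several and 9160 none. The brightest probe set by mean log2 level stood for its gene. No 2 arrays were copies (smallest root mean square distance 0.227, log2).

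Genotype was tested on log2(value + 1) with limma 3.58.1 in R 4.3.3 (lmFit, eBayes, two-sided), with the pair as a block and Benjamini-Hochberg adjustment at 0.05. Pairs were read from the design text and from neighbouring animal numbers in the titles. Deviations from group means correlated within pairs at 0.258, 0.604 and 0.597, and at 0.215 or lower otherwise. The fit was tested on simulated data. Exact permutation of 3 against 3 cannot go below 0.1, or 0.25 within pairs, so none was used. The genes and lists were chosen with earlier results of these data known. Named from each list were up to 3 genes with the smallest p, and for each of the 5 genes the 3 with the closest profile. Alternatives were the fit without the block, a pseudocount of 16, probe sets brighter than the median only, quantile and cyclic loess normalization, an intensity trend, each pair left out, and Smad1 CKO 3 left out.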

Additional observations from a re-analysis of the deposited data

How the results depend on the processing

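The differences of Nmu, Rab3c, Gng3, Trpc7 and Entpd3 kept their sign under the alternatives run, and 49 of 50 values moved by no more than 1 SD over pairs. That sign follows from the choice of the genes where a pair is left out. Nor can a mean with 1 pair left out move by more than 1 SD over pairs. The fit without the block and the filter on dim probe sets return the same difference by construction. All of these settings thus say nothing of stability. The exception was Rab3c by the mean of its 5 probe sets, at 0.61. The filter on dim probe sets left Rab3c out, as its mean lies below the median. Leaving out each pair in turn gave 1.62 to 1.99 for Nmu, 1.17 to 1.53 for Rab3c, 1.21 to 2.11 for Gng3, 0.73 to 1.15 for Trpc7 and 0.74 to 0.93 for Entpd3.

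Counts of calls depended on the fit. Probe sets called lower, 1 with all pairs (Sftpa1), were 0 without the replicate block, with a pseudocount of 16, after quantile normalization and without Smad1 CKO 3. They were 2 after cyclic loess normalization, 16 among probe sets brighter than the median and 30 with an intensity trend. Without 1 pair they ran from 0 (pair 1) to 24 (pair 3). Probe sets called higher, 0 with all pairs, were 2 with an intensity trend (Nmu and Mt1), 1 without Smad1 CKO 3 (Gstm5) and 0 to 4 without 1 pair, the 4 being Nmu, Gstm5, Mt1 and Cdh16 without pair 3. Nmu was chosen by this same difference, so its calls here are no test of it. List genes called lower were 2 with the trend (Arg1 and Ddc) and 0 to 1 without 1 pair. The causes were not tested. The block changed no other call. Of 153 list medians under alternatives 21 moved by more than their SD over pairs, and 11 of 17 lists turned the sign of their median under at least 1. Nmu and Rab3c were dim in wild type, which limits their folds.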
